A study of Caenorhabditis elegans with 36 samples.

Results

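Small RNA of whole hermaphrodite worms (Caenorhabditis elegans, wild-type strain N2) was compared between 2 groups that had both received rotenone at 100 nM, one taken at 5 days and the other at 3 days. Rotenone blocks complex I of the mitochondrial respiratory chain. Each group held 3 libraries, chosen by their treatment and time labels, so the comparison rests on 6 of the 36 libraries of the series. The worms given DMSO (0.1 %), the vehicle, at 5 and 3 days (3 libraries each) show how the same interval passed without rotenone. Worms given H2O (0.1 %) at 1 and 5 days (3 libraries each) are shown beside the hairpins whose change differed between rotenone and DMSO. The series title counts the times from treatment, the sample labels enter them as age, and neither the stage at the start of treatment nor any separation of worms from offspring is stated in the sources used here. Whether rotenone worms also received DMSO is not stated either.

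A miRNA is cut from a hairpin precursor, loaded into an Argonaute protein and guided to messenger RNAs mainly by its seed near the 5′ end, and the targeted messages are translated less or decay. In C. elegans, lin-4 and let-7 were found as timers of larval development, several other miRNAs alter lifespan when lost, and the mir-35 family is needed by the embryo. Hermaphrodites carry oocytes and embryos while they reproduce, so RNA from whole worms mixes body tissues with germ line and brood.

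The deposited table held counts for 250 hairpins, with the 2 arms of a hairpin not separated, and 193 of them had enough counts to be tested. The 6 rotenone libraries held 5624214 to 7213369 counts each. The 3 days libraries were all sequenced on lane 8 and the 5 days libraries all on lane 3, so time and lane cannot be told apart within rotenone. In DMSO the 3 days libraries were on lane 3 and the 5 days libraries on lane 1. The labels do not tie the 3 libraries of a group to different cultures. The p-values therefore rest on the spread among libraries, which may be technical. Levels are given as CPM, that is counts relative to the TMM-scaled library total, not divided by length, and changes as log2 fold changes of 5 against 3 days ± SE. Adjusted p-values come from the quasi-likelihood test of edgeR, with Benjamini-Hochberg adjustment over all 193 hairpins and a threshold of 0.05. The defining miRNAs of muscle (mir-1), intestine (mir-60), glia (mir-228), the ASE taste neuron (lsy-6), ciliated sensory neurons (mir-124) and oocytes and embryos (mir-35 family) were all present in all 6 libraries.

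About as many hairpins passed the threshold between 5 and 3 days as did not: 95 of 193 (49.2%) passed, 42 (21.8%) higher and 53 (27.5%) lower at 5 days. The 98 that did not pass are not shown to be unchanged, and 24 of them had groups that did not overlap. Most of the changes were moderate. The median change of the 95 was 1.38-fold, 36 changed by more than 1.5-fold and 13 by more than 2-fold, 3 of them higher and 10 lower. In 116 hairpins (60.1%) the 3 libraries of one time all lay above the 3 of the other, with 5 days above in 52 (26.9%) and below in 64 (33.2%). Among the 95, lin-4, mir-357 and mir-4929 were the exceptions whose groups overlapped. Of the 25 hairpins at 10000 CPM or more, 12 rose and 7 fell, and none of these 25 changed by more than -0.63 or 0.72 on the log2 scale. Of the 49 hairpins between 10 and 100 CPM, 4 rose and 21 fell.

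**Figure D1:**
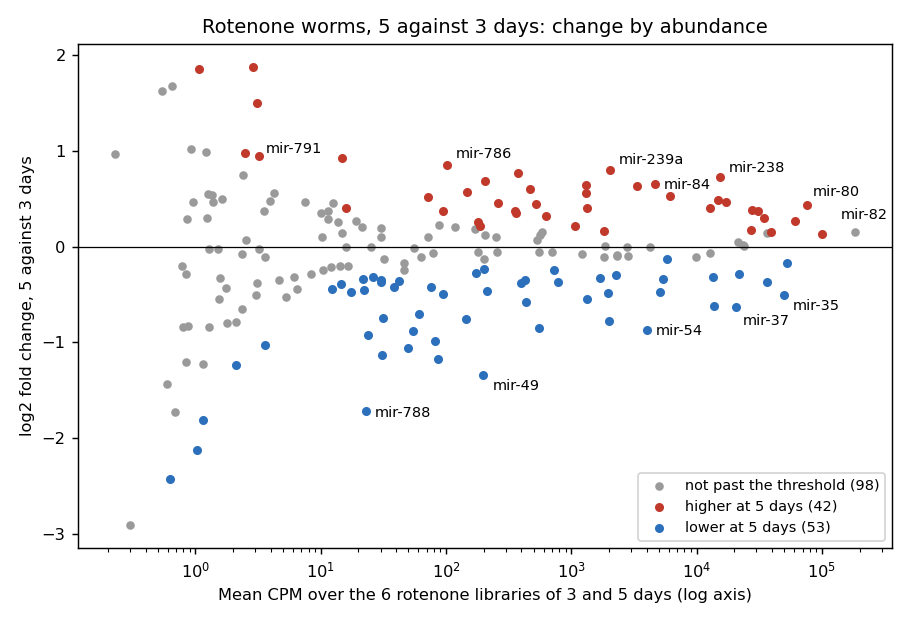
Each point is 1 of the 193 hairpins tested, with its mean CPM over the 6 rotenone libraries on the x axis (log scale) and its log2 fold change of 5 against 3 days on the y axis. Hairpins that were higher at 5 days (red, 42) and lower (blue, 53) are found at every level from 10 CPM upward, and the falls of mir-788 and mir-49 are the largest of that range. Under 10 CPM lie 5 of the red and 5 of the blue points, among them the largest called rise (1.87) and fall (-2.43).

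Several miRNAs tied to lifespan were among the rises. The mir-238 family rose as a whole, with 3 of 3 members past the threshold, against rises in 21.8% of all 193 hairpins. mir-238, whose loss shortens life, read 11121, 11572 and 12266 CPM at 3 days and 18745, 18934 and 19935 CPM at 5 days, a rise of 1.65-fold (log2 0.72 ± 0.060, adjusted p = 6.71e-13). Its relatives mir-239a and mir-239b, whose loss has been reported to lengthen life, rose as well. mir-239a went from 1483, 1409 and 1537 CPM to 2653, 2712 and 2343 CPM (log2 0.80 ± 0.063, adjusted p = 1.73e-13). mir-239b went from 1015, 946 and 1092 CPM to 1685, 1669 and 1422 CPM (log2 0.65 ± 0.097, adjusted p = 5.38e-07). For each of the 3 members the lowest library of 5 days lay above the highest of 3 days.

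Over the list of 8 lifespan-associated miRNAs, 7 rose and 0 fell, against rises in 21.8% of all 193 hairpins. The median log2 change of the list was 0.46, against -0.061 over all 193. In DMSO 7 of the list also rose and 0 fell, with a median of 0.62. mir-246, whose loss shortens life, held 12240, 12219 and 12288 CPM at 3 days and 17263, 17150 and 17058 CPM at 5 days, so that both groups were tight and far apart (log2 0.49 ± 0.053, adjusted p = 6.43e-10). mir-34, a miRNA of the DNA damage response, rose from 1126, 1118 and 1190 CPM to 1409, 1585 and 1556 CPM (log2 0.41 ± 0.051, adjusted p = 1.92e-08). mir-80, a bantam-like miRNA linked to dietary restriction, rose from 64789, 67230 and 63634 CPM to 89926, 91298 and 82693 CPM (log2 0.43 ± 0.053, adjusted p = 1.24e-08). lin-4 rose by log2 0.32 ± 0.098 (adjusted p = 0.00685), with overlapping groups of 527, 526 and 615 CPM and 598, 694 and 789 CPM. Without 5 days replicate 3, the highest of them, lin-4 stood at 0.22 (adjusted p = 0.0889, over all alternatives 0.000439 to 0.0889). mir-71, which acts in neurons to lengthen life in worms without a germ line, was the member that did not pass, at 13104, 12953 and 13004 CPM and 12138, 12895 and 12146 CPM (log2 -0.071 ± 0.064). The list joins miRNAs whose loss acts in opposite directions on lifespan, and the 7 rises in rotenone held under the 2 other scalings.

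In the let-7 family, whose members time the larval stages, 3 of 8 tested members rose, 1 fell and 4 did not pass, a share of calls near that of all hairpins. mir-84 rose from 3644, 3599 and 3615 CPM to 5696, 5774 and 5624 CPM (log2 0.65 ± 0.045, adjusted p = 6.47e-15), the smallest p of any rise. mir-48, which acts with mir-84 and mir-241 at the passage from the second to the third larval stage, rose from 14862, 14103 and 14693 CPM to 19971, 19864 and 20333 CPM (log2 0.46 ± 0.054, adjusted p = 3.68e-09). mir-795 rose 1.49-fold (log2 0.57 ± 0.077, adjusted p = 7.38e-08). let-7 itself fell, from 2544, 2492 and 2459 CPM to 2032, 2025 and 2047 CPM (log2 -0.30 ± 0.056, adjusted p = 2.54e-05), with no overlap between times. In an additive fit of treatment, time and lane, which gives 1 time effect shared by all treatments, let-7 stood at -0.14 and did not pass. Among the members that did not pass, mir-241 was at 584, 600 and 444 CPM and 677, 583 and 513 CPM. With DESeq2 size factors in place of TMM 5 members rose and 1 fell, and in the additive fit 6 rose and 0 fell, with a median of 0.31 against 0.14. In DMSO 6 rose and 0 fell. In the lin-4 family mir-237, the sister of lin-4, fell from 14010, 15050 and 15710 CPM to 11798, 11717 and 12506 CPM (log2 -0.31 ± 0.064, adjusted p = 7.94e-05), against the rise of lin-4.

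In the intestine-linked pair mir-240 and mir-786, both members rose. mir-786, which sets the rhythm of defecation from the intestine, rose from 66.6, 68.4 and 83.0 CPM to 129, 126 and 137 CPM (log2 0.85 ± 0.093, adjusted p = 7.81e-10). mir-240, its neighbour in the RefSeq annotation of assembly WBcel235, rose from 2655, 2653 and 2550 CPM to 4052, 4194 and 3960 CPM (log2 0.64 ± 0.058, adjusted p = 9.15e-12). The intestinal marker mir-60 showed no such difference, at 1864, 1718 and 2004 CPM and 1794, 1982 and 1823 CPM (log2 0.0036 ± 0.093, adjusted p = 0.983).

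The largest rise of all hairpins at 10 CPM or more was that of mir-791, a miRNA of carbon dioxide-sensing neurons, from between 8.87 and 10.7 CPM in the 3 libraries of 3 days to between 16.6 and 21.2 CPM in those of 5 days (log2 0.92 ± 0.17, adjusted p = 2.52e-05). Its rotenone means had been 18.2 CPM at 6 hours, 10.5 CPM at 1 day and 15.4 CPM at 2 days. They were 10.1 CPM at 3 days and 19.2 CPM at 5 days, the latter near that of 6 hours. Rotenone at 1 and 3 days was on lane 8, as was DMSO at 6 hours (mean 18.9 CPM). Time and lane cannot be told apart here, and the additive fit, shared by all treatments, gave log2 0.33. The remaining large rises were of miRNAs with no well-known role: mir-253, mir-249, mir-355 and mir-248. mir-253 went from 281, 290 and 266 CPM to 495, 490 and 440 CPM (log2 0.77 ± 0.068). mir-249 went from 146, 166 and 162 CPM to 254, 266 and 241 CPM (log2 0.68 ± 0.093). All 4 had separate groups, which the choice of the 12 largest rises required. mir-355 was the steadiest of them, at 371, 366 and 371 CPM and 556, 557 and 565 CPM. Across the 5 rotenone times, 11 of the 12 largest rises had their highest mean at 5 days, the exception being mir-795, and 5 of them rose at every step from 1 day on. mir-355 did so from 163 CPM at 1 day through 267 and 369 CPM at 2 and 3 days to 559 CPM at 5 days.

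**Figure D2:**
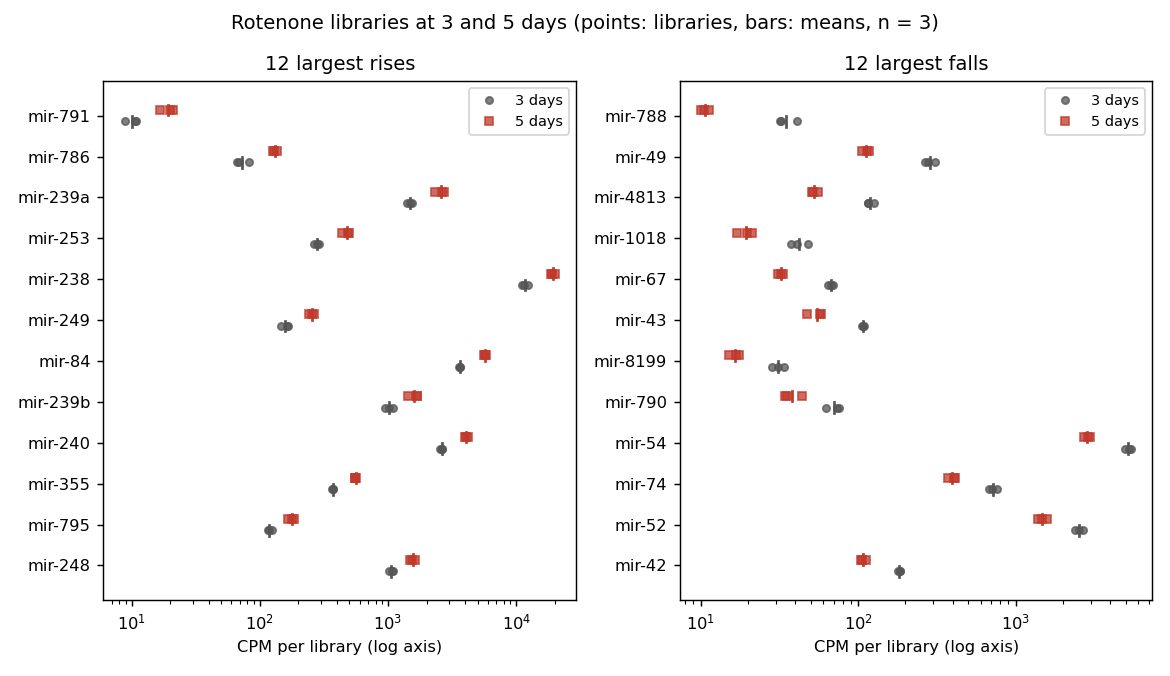
CPM (log axis) of every rotenone library at 3 days (grey circles) and 5 days (red squares) for the 12 largest rises and 12 largest falls, with vertical bars at the means of 3 libraries. The hairpins were chosen for groups that do not overlap, and their levels run from 8.87 CPM (mir-791, 3 days) to 19935 CPM (mir-238, 5 days).

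The deepest fall of the hairpins at 10 CPM or more belonged to mir-788, which read 40.8, 32.4 and 32.0 CPM at 3 days and 10.5, 10.1 and 11.4 CPM at 5 days, or 0.304 of its earlier level (log2 -1.72 ± 0.17, adjusted p = 1.23e-10). mir-49 fell from 279, 306 and 268 CPM to 106, 114 and 117 CPM (log2 -1.34 ± 0.085, adjusted p = 1.04e-15). mir-83, which shares the miR-29 type of seed with mir-49, went the other way, from 219, 240 and 199 CPM to 287, 313 and 299 CPM (log2 0.45 ± 0.093, adjusted p = 8.5e-05). Both had separate groups, in opposite directions, which for mir-49 the choice of the 12 largest falls required. mir-4813 fell from 116, 126 and 116 CPM to 50.7, 51.9 and 55.3 CPM (log2 -1.18 ± 0.083). mir-67 fell from 67.3, 64.8 and 69.1 CPM to 32.2, 31.1 and 33.4 CPM (log2 -1.05 ± 0.10). In both, the libraries of 5 days read about alike and lay well below those of 3 days. mir-8199 fell to 0.529 of its level (log2 -0.92 ± 0.14). Of the 12 largest falls, whose choice favours a low at 5 days, 6 had their lowest mean of the 5 rotenone times at 5 days. The other 6, such as mir-4813 with 46.4 CPM at 6 hours and 52.6 CPM at 5 days, had been lower still at 6 hours.

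All 8 members of the mir-35 family, the miRNAs of oocytes and embryos, fell together, against falls in 27.5% of all 193 hairpins. The fall was largest in mir-42, from 184, 179 and 185 CPM to 113, 105 and 107 CPM (log2 -0.76 ± 0.10, adjusted p = 5.16e-08). mir-35, the member with the most counts, fell from 52792, 56409 and 65869 CPM to 39548, 40176 and 43227 CPM (log2 -0.51 ± 0.10, adjusted p = 7.2e-05). mir-37 fell from 20496, 21837 and 32205 CPM to 15407, 14968 and 17689 CPM (log2 -0.63 ± 0.12, adjusted p = 1.96e-05), and mir-40 to 0.652 of its level (log2 -0.62 ± 0.10). The 3 days replicate 3 was the highest for mir-35, mir-37 and mir-40, and without it the changes of these 3 were -0.42, -0.41 and -0.49 and still passed. mir-36 (-0.47 ± 0.091), mir-38 (-0.55 ± 0.11), mir-39 (-0.37 ± 0.079) and mir-41 (-0.50 ± 0.091) completed the family, whose median log2 change was -0.53. Together its members took 14.4% ± 1.47 of all counts at 3 days and 9.63% ± 0.163 at 5 days (SD, n = 3). The 8 falls held under both other scalings, and 7 of them, without mir-39, in the additive fit with lane, where the median was -0.32. In RNA of whole worms, fewer cells of a type and less RNA per cell cannot be told apart, here and for every miRNA below that marks a tissue. Members of the family are close in sequence and may share reads, so their division is uncertain. Of its neighbours in the annotation, mir-43, which lies beside mir-42 and belongs to the mir-2 family, fell from 110, 106 and 107 CPM to 57.7, 58.3 and 47.8 CPM (log2 -0.98 ± 0.090, adjusted p = 8.78e-12). mir-44 and mir-45 of the same stretch of annotation stayed near 0, at log2 0.0073 ± 0.049 and 0.019 ± 0.050.

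**Figure D3:**
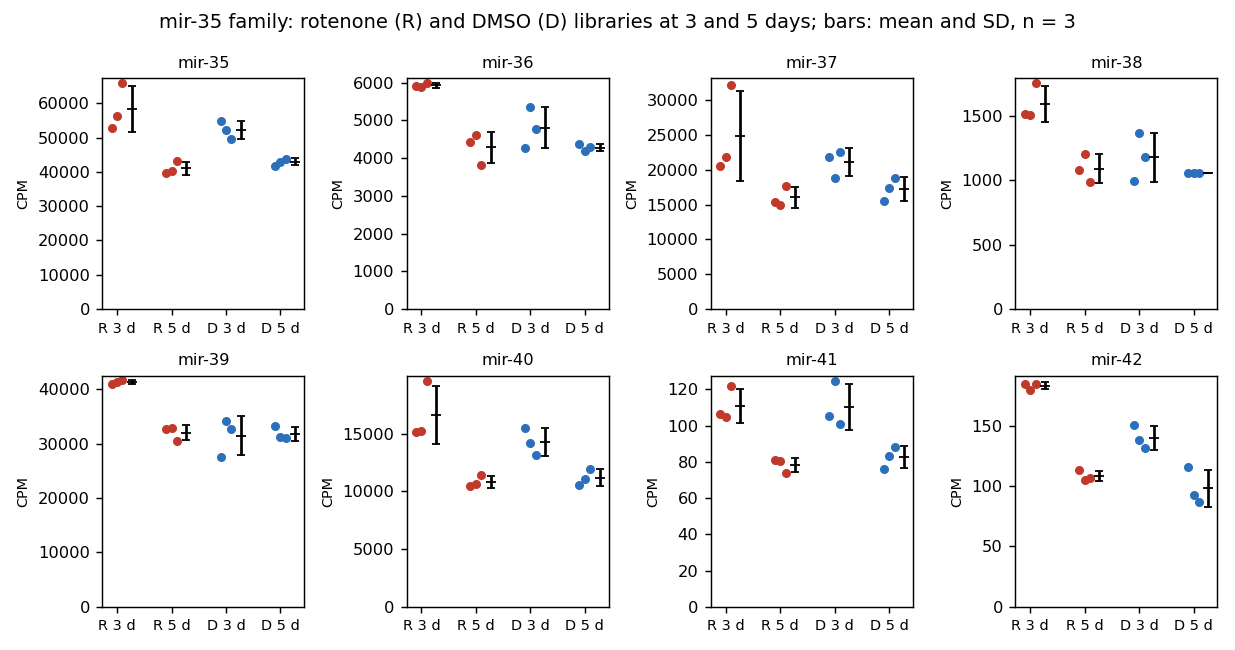
CPM of the 8 members of the mir-35 family in each library of rotenone (R, red) and DMSO (D, blue) at 3 and 5 days, with mean and SD of 3 libraries in black. All 3 rotenone libraries of 5 days lie below all 3 of 3 days in every member, as in 33.2% of all 193 hairpins. In DMSO the libraries of both times overlap for mir-36, mir-37, mir-38 and mir-39, and 24.9% of all hairpins are lower without overlap. Overlap in 1 treatment only does not show a difference between treatments. That difference passed for mir-39 alone of the family (adjusted p = 0.0487, edgeR).

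Among the miRNAs of other tissues, 3 of 4 neuronal miRNAs and muscle mir-1 were lower at 5 days, in rotenone and also in DMSO. lsy-6, which makes the left and right ASE taste neurons differ, fell from 74.8, 77.9 and 73.8 CPM to 48.2, 44.3 and 46.2 CPM (log2 -0.71 ± 0.099, adjusted p = 1.4e-07). mir-790 fell from 62.7, 75.9 and 73.1 CPM to 35.5, 34.4 and 44.1 CPM (log2 -0.89 ± 0.12, adjusted p = 1.2e-07). mir-124 of ciliated sensory neurons fell from 17.9, 21.2 and 22.2 CPM to 15.7, 15.6 and 12.9 CPM (log2 -0.47 ± 0.16, adjusted p = 0.0125). Of the 4 neuronal miRNAs 3 therefore fell and mir-791 rose, under each of the 3 scalings. With TMM 27.5% of all 193 hairpins fell. Muscle mir-1 fell from 526, 514 and 523 CPM to 310, 376 and 357 CPM (log2 -0.58 ± 0.099, adjusted p = 5.27e-06), and glial mir-228 from 22302, 23142 and 26030 CPM to 17154, 19453 and 21957 CPM (log2 -0.29 ± 0.10, adjusted p = 0.0222). mir-124 did not pass without 3 days replicate 3 or without 5 days replicate 3 (adjusted p = 0.0778 for the latter, all alternatives 0.00254 to 0.0778), nor did mir-228 without 5 days replicate 1 or 3 days replicate 3 or with a lane term (0.133, 0.106 and 0.107, all alternatives 0.00193 to 0.133). In DMSO lsy-6 (log2 -0.82), mir-790 (-1.03), mir-124 (-0.47), mir-1 (-0.55) and mir-228 (-0.27) fell past the threshold too. There mir-791 stood at 0.14. For none of them did the difference between treatments pass.

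The mirtrons, whose precursors are released by splicing instead of by Drosha, were lower in 3 of 3 tested members, against 27.5% of all 193 hairpins. mir-1018 fell from 41.0, 48.3 and 37.7 CPM to 17.1, 21.2 and 19.7 CPM (log2 -1.13 ± 0.14, adjusted p = 1.01e-08). mir-62 fell to 0.746 of its level (log2 -0.42 ± 0.12, adjusted p = 0.00295). mir-1020 fell as well (log2 -0.34 ± 0.14, adjusted p = 0.0382), a call that 6 of 13 alternatives ended (adjusted p from 0.0191 to 0.21), among them leaving out 5 days replicate 1 or 3 or 3 days replicate 1.

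In the mir-51 family, broadly expressed miRNAs of the miR-100 type that the embryo needs, 4 of 6 members fell, against 27.5% of all 193 hairpins. mir-54 fell from 4978, 5403 and 5240 CPM to 2715, 2957 and 2885 CPM (log2 -0.87 ± 0.057, adjusted p = 1.87e-15) and mir-52 from 2386, 2535 and 2681 CPM to 1393, 1579 and 1471 CPM (log2 -0.77 ± 0.10, adjusted p = 5.3e-08). mir-51 (log2 -0.48 ± 0.071) and mir-56 (log2 -0.24 ± 0.088) also fell, the latter not with DESeq2 size factors, while mir-55 stood at -0.00094 ± 0.060 and mir-53 at 0.10 ± 0.12. mir-54, mir-55 and mir-56 are neighbours in the annotation, and their changes thus ran from -0.87 to 0.

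Neighbouring hairpins were compared within runs of the annotation. Of 22 runs of tested hairpins no more than 10000 bases apart in the RefSeq annotation, 11 had at least 2 members past the threshold, and 9 of these had all their calls in one direction, which was not tested against chance. In 2 of the 22 runs, that of mir-35 to mir-41 and that of mir-228 and mir-790, all tested members passed in one direction. Calls in both directions were found for mir-73, mir-74 and mir-75, with 2 falls and 1 rise, and the pair mir-230 (log2 -0.38 ± 0.087) and mir-791 (log2 0.92 ± 0.17). mir-74 fell from 705, 681 and 758 CPM to 405, 375 and 414 CPM (log2 -0.84 ± 0.065, adjusted p = 1.16e-13) and mir-73 to 0.793 of its level (log2 -0.33 ± 0.095), while mir-75 rose by log2 0.25 ± 0.097 (adjusted p = 0.0309), which 9 of 13 alternatives kept, but not total counts and not without 5 days replicate 2 or 3 or 3 days replicate 2. In the run of mir-229, mir-64, mir-65 and mir-66, mir-64 rose by log2 0.38 ± 0.067 and mir-65 by log2 0.37 ± 0.077, while mir-66 stood at -0.0042 ± 0.060 and mir-229 at -0.11 ± 0.048.

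The 6 most abundant hairpins took 48.8% of all counts at 3 days and 49.6% at 5 days. Of these, 3 belong to the mir-58 family, bantam-like miRNAs that act together on body size and egg laying. mir-82, the most abundant, read 177210, 181373 and 164308 CPM at 3 days and 197731, 194222 and 190681 CPM at 5 days, without overlap but short of the threshold (log2 0.16 ± 0.078, adjusted p = 0.099). mir-80 and mir-58a rose (log2 0.43 ± 0.053 and 0.26 ± 0.071), as did mir-81 (log2 0.17 ± 0.065, in 8 of 13 alternatives), and the family as a whole took 31.0% ± 1.21 and 34.4% ± 1.07 of counts (SD, n = 3). With TMM 3 of its 5 tested members rose, against 21.8% of all 193 hairpins, and with total counts 2 of the 5. mir-57, which acts in the fate of posterior cells, fell (log2 -0.18 ± 0.069, adjusted p = 0.0316), which 7 of 13 alternatives kept (adjusted p from 0.000101 to 0.0995), but not DESeq2 size factors and not without replicate 1 or 2 of either time. For mir-72 the libraries read 94503, 94620 and 97695 CPM at 3 days and 105611, 102917 and 106198 CPM at 5 days (log2 0.13 ± 0.050, adjusted p = 0.0263). Its rise passed in 6 of 13 alternatives, but not with total counts, and of the 6 that left out a library only without 3 days replicate 3 (adjusted p over all 13 from 1.06e-12 to 0.314). The lowest of these is from the additive fit with lane (0.48), counted among the passes. Its time effect is shared with DMSO, where mir-72 rose by log2 0.61, so it does not measure the rise in rotenone alone.

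Of all 193 hairpins 49.2% passed, 21.8% as rises and 27.5% as falls. In the other lists, the mir-2 family had 2 falls of 4 members, with a median of -0.41, a share of calls near that of all hairpins. Beside mir-43, mir-2 fell, from 854, 845 and 969 CPM to 653, 680 and 735 CPM (log2 -0.37 ± 0.071, adjusted p = 3.97e-05). With total counts all 4 fell. The mir-64 family had 3 rises of 5 (mir-64, mir-65 and mir-63), and with total counts 2 rises and 1 fall. The mir-44 family had 0 of 4 members past the threshold under any of the 3 scalings. mir-47 rose (log2 0.16 ± 0.054, adjusted p = 0.0139) and mir-46 stood at -0.089 ± 0.061, while with total counts mir-46 fell and mir-47 did not pass, nor did mir-47 without 5 days replicate 2 or 3 or 3 days replicate 1. Below 10 CPM 5 hairpins rose and 5 fell. The largest of these, mir-2221, had 24 counts over the 3 libraries at 3 days and 72 at 5 days (log2 1.87 ± 0.44). mir-8190, the largest fall, had 21 and 3 counts, which comes to 0.175 of the earlier level (95% interval from 0.0335 to 0.588, for counting error only).

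Most of these changes had a counterpart in the worms given DMSO. There 88 of the 193 hairpins (45.6%) passed, 44 (22.8%) higher and 44 (22.8%) lower at 5 days, and the groups did not overlap in 100 (51.8%), 52 (26.9%) with 5 days above and 48 (24.9%) with 5 days below. With no library in common, 69 hairpins passed in both treatments, 72.6% of the rotenone calls and 78.4% of the DMSO calls, and 0 of them in opposite directions. The log2 changes in rotenone and DMSO had a Pearson r of 0.644 over all 193 hairpins and of 0.892 over the 136 at 10 CPM or more, as a description across hairpins, which are not independent and share 1 fit. The falls of mir-788 (-1.96 ± 0.17), mir-49 (-1.12 ± 0.085) and mir-54 (-0.84 ± 0.057) and the rises of mir-239a (0.95 ± 0.063), mir-238 (0.69 ± 0.060) and mir-84 (0.80 ± 0.045) were all seen in DMSO. Lane 3 held the later libraries in rotenone and the earlier ones in DMSO. An additive fit of treatment, time and lane over all 36 libraries, which takes the 3 effects to add up, gave 80 of the 95 rotenone calls in the same direction past the threshold and 94 in the same direction. It includes the rotenone libraries that gave the 95 calls and the DMSO libraries in which 69 of them passed. Agreement was therefore favoured in advance, and the part of lane was not tested. That fit gives 1 time effect for both treatments, and with it let-7, mir-39, mir-87, mir-228, mir-230, mir-357 and mir-1020 were among those not past the threshold. With it mir-791 stood at 0.33, mir-34 at 0.68 and mir-72 at 0.48.

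Whether the change from 3 to 5 days differed between rotenone and DMSO was tested directly. It did for 6 of 193 hairpins (3.11%), 1 (0.518%) with a higher and 5 (2.59%) with a lower change in rotenone, and 41 had an unadjusted p under 0.05. Leaving out 1 library at a time gave 3 to 9, with 3 without rotenone 5 days replicate 1 or rotenone 3 days replicate 3. With total counts the split was 2 and 2, and with DESeq2 size factors 2 and 4. A total of 26 hairpins passed in rotenone and not in DMSO, but for 2 of them, mir-87 and mir-39, the difference itself passed.

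**Figure D4:**
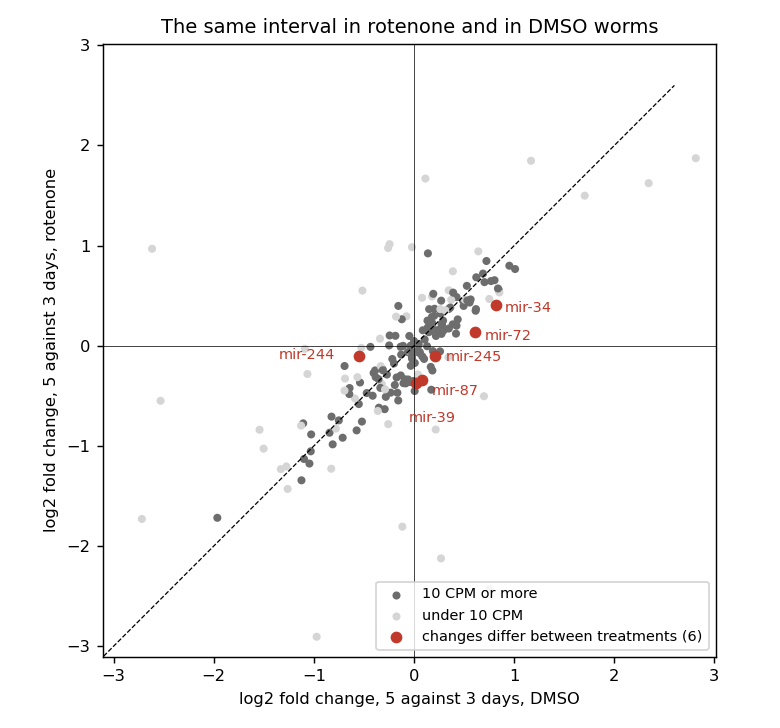
Log2 fold change of 5 against 3 days in DMSO (x axis) and in rotenone (y axis) for the 193 hairpins, with hairpins under 10 CPM in light grey and the dashed line marking equal changes. Pearson r was 0.644 over all 193 hairpins and 0.892 over the 136 at 10 CPM or more, and the 6 whose changes differed between treatments (red) lie off it by 0.31 to 0.48 on the log2 scale.

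The smallest p was that of mir-72. In DMSO it rose from 73222, 76269 and 77476 CPM to 117371, 117111 and 112308 CPM (log2 0.61 ± 0.050), against 0.13 ± 0.050 in rotenone, a difference of -0.48 ± 0.071 (adjusted p = 1.42e-05). The rotenone libraries of 3 days lay above those of DMSO at that time, and those of 5 days below. mir-34 followed the same course. In DMSO it went from 972, 1050 and 1045 CPM to 1701, 1830 and 1876 CPM (log2 0.82 ± 0.051), a larger rise than the 0.41 of rotenone (difference -0.41 ± 0.072, adjusted p = 0.000168). For mir-72 and mir-34 the difference passed in all 18 alternatives.

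mir-87, a conserved miRNA, fell in rotenone from 471, 498 and 468 CPM to 376, 378 and 377 CPM (log2 -0.34 ± 0.068, adjusted p = 4.92e-05), while DMSO libraries overlapped at 371, 433 and 412 CPM and 434, 443 and 411 CPM. The difference was -0.43 ± 0.096 (adjusted p = 0.00512) and passed in 17 of 18 alternatives, but not with total counts (adjusted p = 0.105, all alternatives 0.00117 to 0.105). mir-244 was at 2462, 2354 and 2323 CPM and 2279, 2422 and 1958 CPM in rotenone, which overlapped, and fell in DMSO from 3651, 3530 and 3481 CPM to 2496, 2521 and 2246 CPM. Its difference of 0.45 ± 0.12 (adjusted p = 0.0206) passed under each scaling and in 12 of 18 alternatives (adjusted p from 0.000523 to 0.0892). It did not pass without rotenone 5 days replicate 1 or 2, rotenone 3 days replicate 2 or 3, DMSO 5 days replicate 3 or DMSO 3 days replicate 1. At 5 days the rotenone and DMSO libraries of mir-244 overlapped, and at 3 days they did not.

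The last 2 differences were near the threshold. For mir-245 the change was -0.10 ± 0.061 in rotenone and 0.21 ± 0.061 in DMSO (difference -0.31 ± 0.086, adjusted p = 0.034), past the threshold in 9 of 18 alternatives (adjusted p from 0.00976 to 0.252). It did not pass with total counts, or without rotenone 5 days replicate 1, rotenone 3 days replicate 1 or 3, DMSO 5 days replicate 2 or 3 or DMSO 3 days replicate 2. For mir-39 it was -0.37 ± 0.079 and 0.016 ± 0.079 (difference -0.38 ± 0.11, adjusted p = 0.0487), past it in 3 of 18 (adjusted p from 0.0145 to 0.22), and of the 12 that left out a library only without DMSO 3 days replicate 2 or 3. mir-39 read 40972, 41299 and 41718 CPM in rotenone at 3 days, above the 27521, 34225 and 32763 CPM of DMSO, and 32748, 32967 and 30413 CPM at 5 days, overlapping the 33312, 31224 and 31007 CPM of DMSO. In the rest of the mir-35 family the differences ran from -0.39 to -0.086 and none passed, while in DMSO 5 of 8 members fell and the family went from 12.9% ± 0.258 to 9.70% ± 0.414 of counts (SD, n = 3). mir-791, at 0.92 in rotenone, stood at 0.14 ± 0.17 in DMSO, a difference of 0.78 ± 0.24 that did not pass (adjusted p = 0.0635, over 18 alternatives from 0.0165 to 0.22, of which 7 passed).

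**Figure D5:**
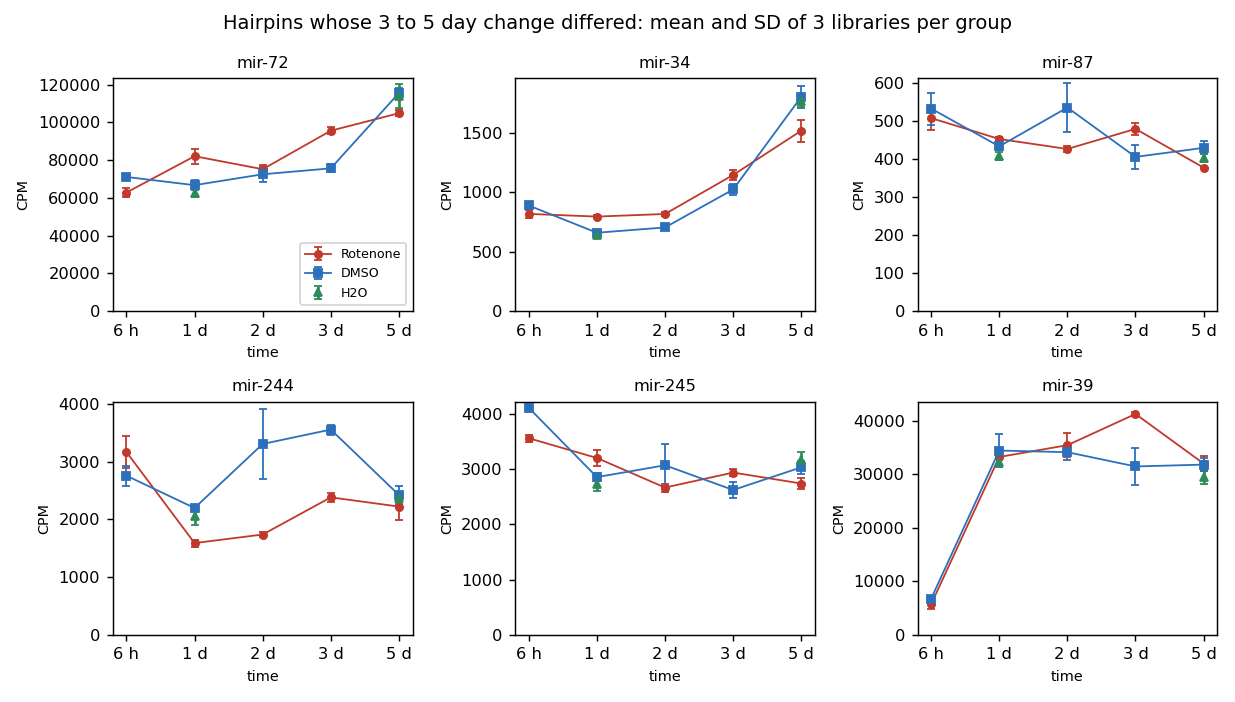
Mean CPM ± SD of 3 libraries for the 6 hairpins whose change from 3 to 5 days differed, in rotenone (red circles), DMSO (blue squares) and, at 1 and 5 days, H2O (green triangles), over time (not to scale). For mir-72 and mir-34 the rotenone mean lies above DMSO at 3 days (95606 against 75656 CPM and 1145 against 1023 CPM) and below it at 5 days (104909 against 115597 CPM and 1517 against 1802 CPM).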

How the data were processed

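Libraries were prepared with a TruSeq kit for small RNA, according to the labels' protocols. The authors deposited raw read counts per miRNA hairpin for 36 libraries. The submitters' processing notes name SAMtools 1.3.1-9, BWA 0.7.12-r1039, Trimmomatic 0.36 and bcl2fastq 1.8.4. Genome build, miRNA annotation and the rule for reads with several matches: none is stated in the sources used here. Hairpins of near-identical sequence may therefore share reads, and coordinates are left out. Depth ran from 4361246 to 14960062 counts, and 3 counts weighed 0.416 to 0.533 CPM in the 6 rotenone libraries. Replicates differed beyond sampling noise (chi-square per degree of freedom 19.6 to 245), and each counted as 1 sample.

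In R 4.3.3 with edgeR 4.0.16, hairpins were filtered with filterByExpr (minimum count 10), scaled with TMM (0.854 to 1.16) and fitted together in 1 quasi-likelihood model with 12 group means (24 residual and 12.6 prior degrees of freedom, common biological coefficient of variation 0.068). The 57 hairpins left out held 0.000636% of the counts of the 6 libraries. Neighbours come from the RefSeq table of assembly WBcel235, which matched 168 of the 193 tested hairpins by symbol. Among the list members, no hairpin carried the name mir-58 or mir-1834 (mir-58a and mir-58b were found), and mir-265 and mir-1019 fell below the filter.

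Named were the 12 largest rises and falls past the threshold with separate groups and at least 10 CPM, the 6 most abundant hairpins, up to 3 members of each list, tissue markers and the 8 smallest p-values of the difference between treatments. let-7 family members and neighbours beyond these, the hairpins outside the lists in the closing section, and the non-passing members of lists were named after their values were seen. Members and lists were chosen with earlier results of these data known. In 20 simulations of rotenone 5 against 3 days with 45 of 193 hairpins changed, 49.3% of 1.25-fold, 69.3% of 1.5-fold and 83.7% of 2-fold changes were recovered, with 5.01% false calls. There, directions were drawn at random and counts varied independently, without a lane effect. In the data 49.2% of hairpins passed, so the 5.01% need not hold for these calls. Alternatives were DESeq2 size factors, total counts, no filter, DESeq2 1.42.0, a replicate block, only the groups compared, an additive model with lane, and each library left out. The additive model gives 1 time effect shared by all treatments, not the change in rotenone alone.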

Additional observations from a re-analysis of the deposited data

Results flagged for a closer look

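The change from 3 to 5 days differed between rotenone and DMSO, by a test of that difference in edgeR over all 193 hairpins, for 6 of the named hairpins. As rotenone minus DMSO on the log2 scale the differences were -0.48 for mir-72, -0.41 for mir-34, -0.43 for mir-87, 0.45 for mir-244, -0.31 for mir-245 and -0.38 for mir-39. In H2O at 5 days mir-72 averaged 113989 CPM, mir-34 1771 CPM, mir-87 404 CPM, mir-244 2374 CPM, mir-245 3175 CPM and mir-39 29578 CPM. The 4 groups of this test were spread over 3 lanes, and the part of the lane in the differences was not tested.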

How the results depend on the processing

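The count of hairpins past the threshold for rotenone 5 against 3 days was 95 as reported. Under the settings that kept all libraries of both groups it was 89 to 107, the highest with the additive lane term and the lowest without a filter. The 107 of the additive fit counts a time effect shared by all treatments, not the change in rotenone alone. Leaving out each library gave 79 to 95, and for DMSO 75 to 82. For the difference between treatments, 6 as reported, it gave 3 to 9 and was 3 without rotenone 5 days replicate 1 or rotenone 3 days replicate 3. Scaling by total counts moved the median log2 change over all hairpins from -0.00415 to -0.209 for DMSO 5 days against 3 days and from -0.0611 to -0.144 for Rotenone 5 days against 3 days, with 33 rises and 62 falls in the latter, against 49 and 46 with DESeq2 size factors. With the lane term mir-245 stood at 0.15 and mir-60 at -0.17 for 5 against 3 days, the reverse of their directions in rotenone, where neither passed; that fit averages over treatments by construction. The replicate block gave 93, 92 and 6 calls for rotenone, DMSO and their difference. Libraries with the same number did not deviate together in every pair (correlations -0.179, -0.18 and -0.226 in rotenone and 0.00398, -0.122 and 0.268 in DMSO). So few values cannot show whether the numbers pair them. Under 10 CPM 17.5% of 57 hairpins passed, and the part of depth in that share was not tested.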

Other observations

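Several well-counted hairpins outside the lists also moved in rotenone, and all of them were named after their values were seen. mir-85 rose from 5057, 4761 and 5140 CPM to 6981, 7836 and 6793 CPM (log2 0.53 ± 0.070, adjusted p = 4.71e-08, edgeR) and by log2 0.39 ± 0.070 in DMSO, with a difference of 0.14 ± 0.099 that did not pass. mir-77 rose from 11054, 10510 and 11800 CPM to 13494, 14681 and 15781 CPM (log2 0.40 ± 0.062). mir-86 fell from 1813, 1845 and 1956 CPM to 1403, 1544 and 1508 CPM (log2 -0.33 ± 0.055). Rotenone and DMSO moved mir-77 and mir-86 in the same direction, with 0.50 and -0.35 in DMSO. mir-235, known for keeping blast cells at rest when larvae starve, rose from 32303, 31856 and 28925 CPM to 37161, 36174 and 41256 CPM (log2 0.30 ± 0.095, adjusted p = 0.0084, edgeR), against 0.20 ± 0.095 in DMSO, and the difference of 0.099 ± 0.13 did not pass (adjusted p = 0.748). mir-70 rose by log2 0.15 ± 0.049 in rotenone and stood at 0.087 ± 0.049 in DMSO, a difference of 0.067 ± 0.069 that did not pass (adjusted p = 0.686).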
